A study of Mus musculus with 8 samples.

Results

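The genes described here encode the transcription factor NRF2, the inhibitor KEAP1 and the enzymes of the glutathione, thioredoxin and peroxidase systems, which remove reactive oxygen species and electrophiles from cells. The set is a list of 41 named mouse genes, matched by symbol among the 55471 gene rows of each library, and all 41 were among the 15084 genes that had enough reads to be tested. Transcripts were measured by RNA sequencing of small pieces of heart, in 4 libraries from wild-type (WT) and 4 from TAZG197V mice aged 14 weeks, without treatment. In each genotype, libraries 1 and 2 were sequenced on lane 7 and libraries 3 and 4 on lane 8, as their deposited names show. TAZG197V mice carry a glycine-to-valine exchange in Tafazzin, the mitochondrial acyltransferase that remodels cardiolipin, and model Barth syndrome. Founders were made by CRISPR/Cas9 editing of C57BL/6N zygotes and crossed with C57BL6/J. According to the study the mutants were hemizygous males from heterozygous mothers and WT fathers, and the exchange is in the germline. WT animals carried no edit. The labels do not name littermates, litters or the part of the heart taken. In bulk tissue, fewer cells of a type and less RNA per cell cannot be told apart.

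Under basal conditions KEAP1 binds NRF2 in the cytosol and presents it for ubiquitination and degradation. When cysteines of KEAP1 are modified by oxidants or electrophiles, newly made NRF2 reaches the nucleus, pairs with small MAF proteins and binds antioxidant response elements near genes for glutathione synthesis, thioredoxin recycling, quinone reduction and NADPH supply. Superoxide dismutases turn superoxide into hydrogen peroxide, which catalase, peroxiredoxins and glutathione peroxidases then reduce. The heart consumes much oxygen, and its mitochondria hold their own superoxide dismutase, thioredoxin, thioredoxin reductase and peroxiredoxin.

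Because the set centres on an activator that reads the antioxidant response element, the promoters of its genes are shown first. RefSeq promoter sequences on GRCm38.p6, from 250 bases before to 50 after the gene start, were found for 35 of the 41 genes, not for Hmox1, Gclc, Gsr, Prdx6, Sod3 and Gsta4, of which the first 4 were called higher. The core TGACNNNGC was searched on both strands, where the minus strand reads GCNNNGTCA. Some genes have several annotated starts, and a match at any of them was counted. At least 1 match lay in 10 of the 35 genes (28.6%). By direction of the transcript difference, matches were present in 8 of 17 genes called higher in TAZG197V (47.1%), 1 of 4 called lower (25.0%) and 1 of 14 not called (7.14%). Among all 11116 tested symbols with a promoter the shares were 18.9% of those called higher, 18.2% of those called lower and 16.1% of those not called, or 17.0% in all. These shares were not tested against each other, and a match is a run of letters, not a measured binding site. The 6 promoters below are shown because they contrast 5 genes that were higher in TAZG197V with 1, Mgst1, that was lower while holding the same core, which is in capitals.
Srxn1 (chr2:152105274-152105573, plus strand): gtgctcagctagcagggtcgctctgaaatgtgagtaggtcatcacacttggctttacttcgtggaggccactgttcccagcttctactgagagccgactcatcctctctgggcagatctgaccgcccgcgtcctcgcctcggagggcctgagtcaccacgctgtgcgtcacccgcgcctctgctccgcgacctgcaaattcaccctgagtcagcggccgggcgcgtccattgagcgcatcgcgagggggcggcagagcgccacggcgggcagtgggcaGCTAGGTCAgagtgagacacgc
Txnrd1 (chr10:82858956-82859255, plus strand): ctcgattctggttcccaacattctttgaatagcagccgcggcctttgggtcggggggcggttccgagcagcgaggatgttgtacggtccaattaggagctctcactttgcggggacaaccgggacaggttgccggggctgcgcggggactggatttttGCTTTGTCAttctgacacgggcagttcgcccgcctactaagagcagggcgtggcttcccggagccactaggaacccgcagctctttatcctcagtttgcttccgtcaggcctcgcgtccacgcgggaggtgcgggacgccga
Gclm (chr3:122245307-122245606, plus strand): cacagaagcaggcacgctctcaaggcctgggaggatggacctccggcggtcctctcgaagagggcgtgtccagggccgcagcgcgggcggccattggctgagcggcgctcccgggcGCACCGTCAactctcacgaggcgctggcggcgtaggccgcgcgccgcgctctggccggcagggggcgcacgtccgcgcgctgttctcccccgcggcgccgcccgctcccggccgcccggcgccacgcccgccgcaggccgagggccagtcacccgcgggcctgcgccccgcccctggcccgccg
Prdx1 (chr4:116685349-116685648, plus strand): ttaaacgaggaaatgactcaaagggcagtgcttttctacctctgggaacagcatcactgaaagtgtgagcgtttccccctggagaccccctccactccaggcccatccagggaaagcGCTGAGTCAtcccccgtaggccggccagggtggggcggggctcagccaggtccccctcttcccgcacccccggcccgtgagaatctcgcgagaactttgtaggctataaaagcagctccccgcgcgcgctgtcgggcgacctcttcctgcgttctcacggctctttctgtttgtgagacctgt
Gstm5 (chr3:107895604-107895903, plus strand): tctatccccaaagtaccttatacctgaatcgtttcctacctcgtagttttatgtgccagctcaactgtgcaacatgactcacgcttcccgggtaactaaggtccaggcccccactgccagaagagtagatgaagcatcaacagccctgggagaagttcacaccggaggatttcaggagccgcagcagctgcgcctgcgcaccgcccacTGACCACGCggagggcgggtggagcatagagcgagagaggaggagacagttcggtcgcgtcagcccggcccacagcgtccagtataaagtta
Mgst1 (chr6:138140277-138140576, plus strand): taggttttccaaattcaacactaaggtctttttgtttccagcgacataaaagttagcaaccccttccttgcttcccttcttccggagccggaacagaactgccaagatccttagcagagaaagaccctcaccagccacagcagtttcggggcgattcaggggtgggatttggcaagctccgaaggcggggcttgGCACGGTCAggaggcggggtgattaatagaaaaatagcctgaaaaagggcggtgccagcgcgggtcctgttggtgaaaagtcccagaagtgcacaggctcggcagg
The cores of Gclm and Prdx1 began at positions -134 and -133 relative to the start of the printed promoter's transcript, those of Txnrd1 and Mgst1 at -92 and -56, and that of Gstm5 at -42. That of Srxn1 lay after its start. The printed promoter of Txnrd1 belongs to 1 of 3 annotated starts, inside the gene as GENCODE gives it, and that of Mgst1 to 1 of 2, and their other starts held no match. The other genes with a match were Nfe2l2, Sod1 and Pgd among those called higher and G6pdx among those not called.

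Total counts ranged from 23055689 to 36301031 per library, and the lowest count of any of the 41 genes in a library was 132. Gene positions are given on GRCm38, the assembly that mm10 names. Taz itself (ENSMUSG00000009995, chrX:74281912-74290151), which encodes Tafazzin, averaged 60.9 ± 2.36 CPM over WT and 47.3 ± 2.60 over TAZG197V hearts (mean ± SD of 4), a log2 fold change of -0.37 (edgeR adjusted p = 0.00124). CPM stands for counts per 1000000 counts of the library, after TMM scaling. Ventricular markers summed to 43414 to 50524 CPM in WT and 36346 to 40246 in TAZG197V, with 2 of 6 called lower and 1 higher. Markers of other cells varied between pieces. The summed level of 8 red cell genes was 346 to 55109 CPM in WT and 228 to 572 in TAZG197V, with the top value in WT 4, and all 6 that were tested were called lower. Neural markers summed to 117 CPM in WT 4 and 271 in TAZG197V 4, against 11.6 to 17.8 in the other 6 libraries, with 1 of 5 tested called higher and 1 lower. Neutrophil markers summed to 50.4 CPM in WT 4 and at most 3.46 in any other library. Atrial markers summed to 1094 CPM in WT 2 and at most 130.02 in any other library, with 2 of 3 tested called lower. Macrophage markers summed to 285 to 400.1 CPM in WT and 288 to 432 in TAZG197V. Fibroblast markers had 3 of 6 called lower and endothelial markers 2 of 5, at sums of 985 to 1626 and 651 to 899 CPM in WT against 678 to 985 and 503 to 702 in TAZG197V. Smooth muscle markers, at 124 to 256 CPM in WT and 218 to 412 in TAZG197V, had Acta2 called higher and the other 3 of 4 lower. Adipocyte markers summed to 419 to 587 and 404 to 515 CPM, with 1 of 2 tested called lower. Fabp4 alone gave 398 to 587 and 404 to 515 CPM. Cfd, Plin1, Cidec and Adipoq were highest in WT 2, at 10.1, 3.93, 3.57 and 3.11 CPM. Skeletal muscle markers summed to 1209 to 1792 and 1324 to 1614 CPM, with 0 of 1 called. Ckm alone gave 1208 to 1791 and 1323 to 1614 CPM, and 4 of the 5 genes stayed under 1 CPM in every library. The part of these cells in the differences below was not tested except where a value without a library is given.

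Of the 41 genes, 21 (51.2%) were called higher in TAZG197V hearts and 4 (9.76%) lower, while 16 did not pass. A gene was called when its edgeR adjusted p was under 0.05 and its fitted log2 fold change was beyond 0.202 either way, the study's minimum, with a mean scaled count of at least 50. Over all 15084 genes tested 18.5% were called higher and 15.1% lower, 33.5% in all. The median log2 fold change was 0.23 for the 41 genes and -0.01 for all genes tested. All TAZG197V libraries lay above all WT libraries for 14 of the 41 genes (34.1%, against 19.3% of all genes) and below them for 3 (against 13.9%). Without WT 4 the set had 17 genes called higher and 3 lower, and without both number 4 libraries 19 and 4. The 4 genes for glutathione synthesis and reduction and the 3 NRF2 marker enzymes were all called higher. The 7 glutathione S-transferases went both ways.

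**Figure D1:**
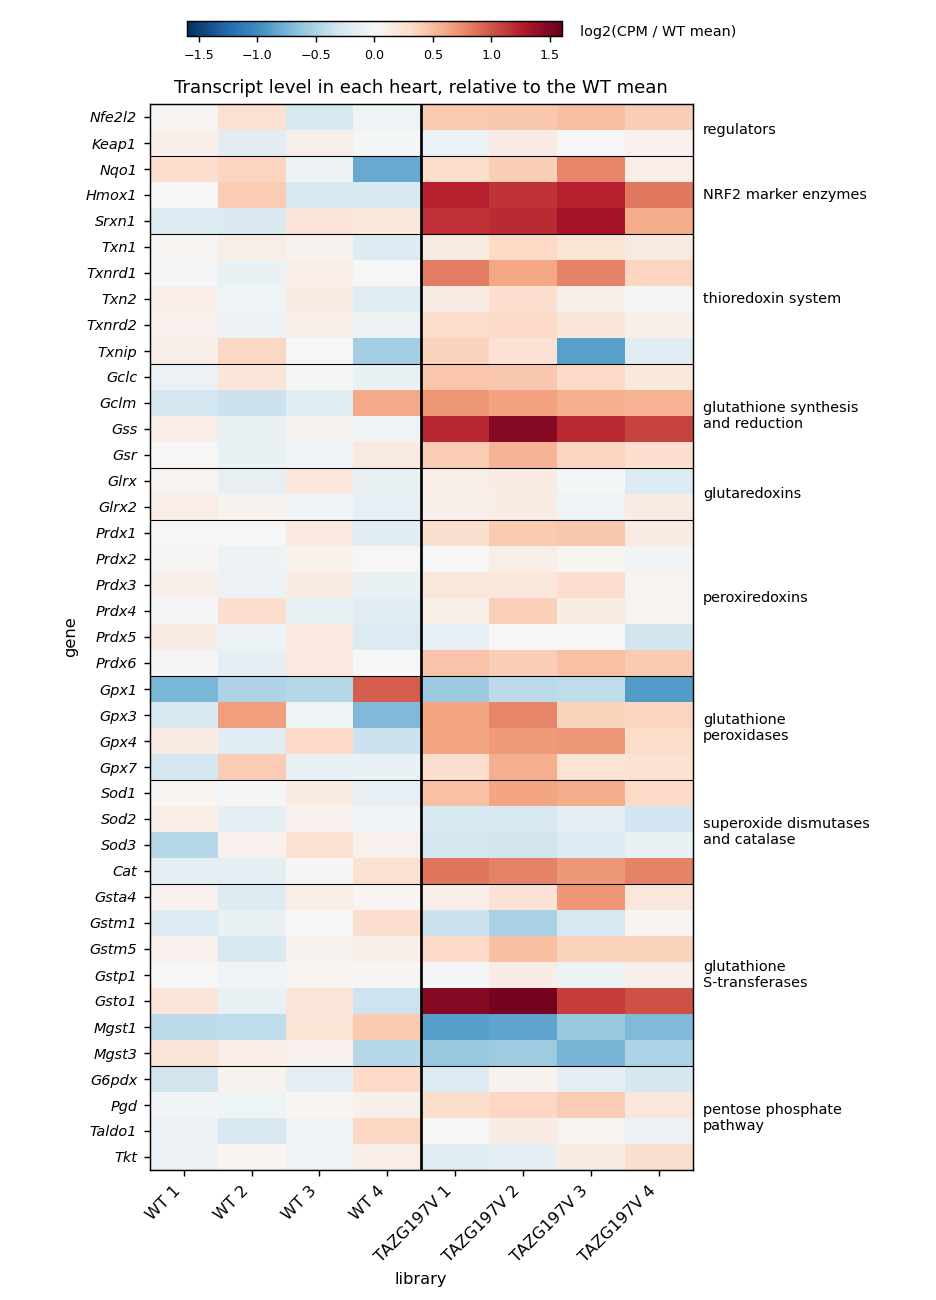
Level of each of the 41 genes (vertical axis, grouped by role), in each of the 8 libraries (horizontal axis), coloured by log2 of CPM over the WT mean. Red fills the TAZG197V columns for Hmox1, Srxn1, Gss, Gsto1 and Cat, blue those for Mgst1 and Mgst3, and WT 4 stands out for Gpx1, Gclm and Nqo1.

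**Figure D2:**
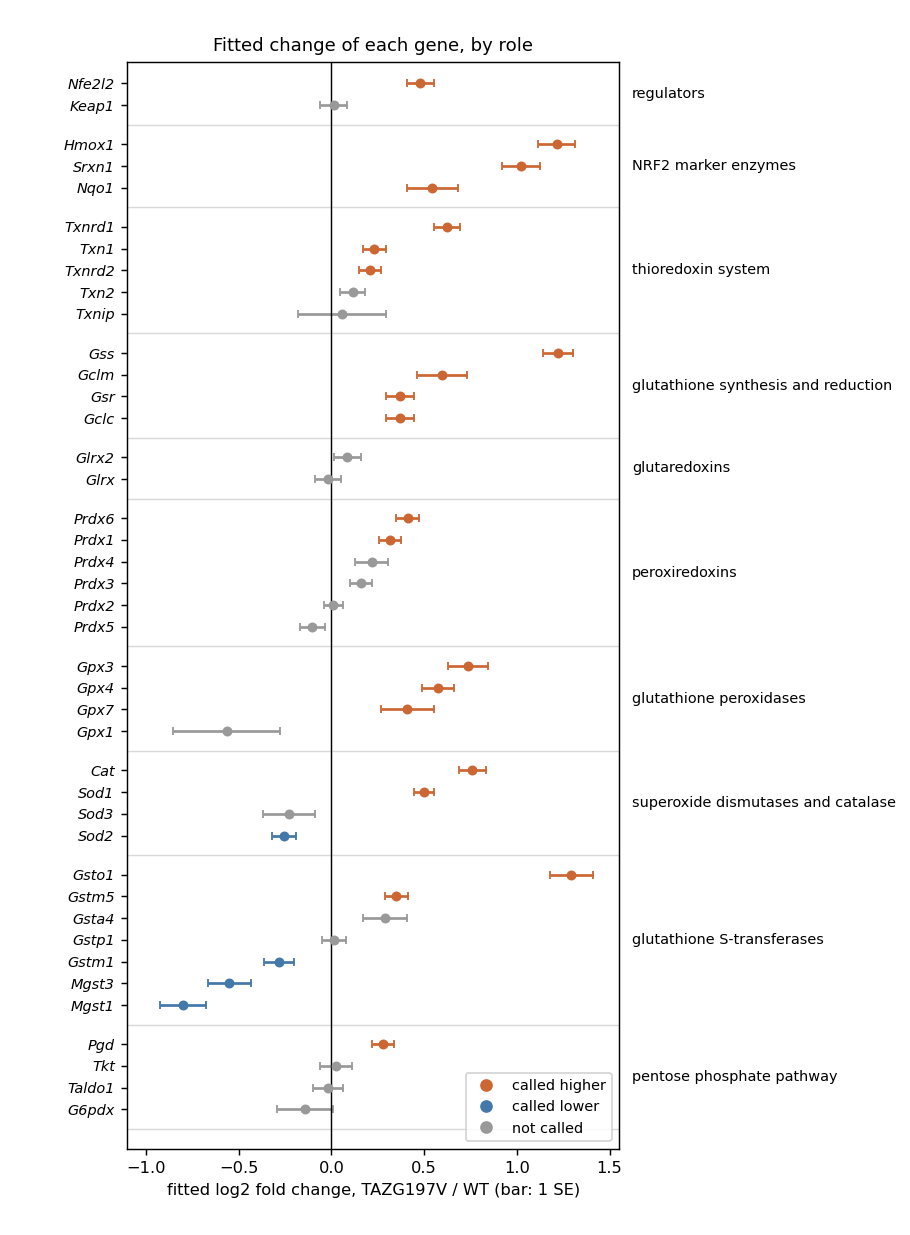
Fitted log2 fold change (TAZG197V minus WT) of each gene on the horizontal axis, with genes by role on the vertical axis and bars for 1 standard error, coloured orange for genes called higher, blue for lower and grey for not called. Values run from -0.80 for Mgst1 to 1.29 for Gsto1, with 21 genes called higher and 4 lower.

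Among the regulators, the transcript of the activator rose and that of its inhibitor did not pass. Nfe2l2 (ENSMUSG00000015839, chr2:75675513-75704641), which encodes NRF2, had 69.9, 80.7, 57.2 and 65.0 CPM in WT 1 to WT 4 and 91.2, 92.0, 95.3 and 89.6 CPM in TAZG197V 1 to TAZG197V 4. Every TAZG197V heart was above every WT heart, and the mutants varied less (SD 2.40 against 9.84 CPM). Its log2 fold change was 0.48 ± 0.073 (SE, edgeR adjusted p = 0.00144), and it was called in all 17 alternative fits. Keap1 (ENSMUSG00000003308, chr9:21229730-21239361), the adaptor that presents NRF2 for degradation, ran from 42.1 to 50.9 CPM in WT and 44.7 to 52.1 in the mutants. Its groups overlapped throughout, with a log2 fold change of 0.01 ± 0.074 (SE, edgeR adjusted p = 0.905).

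The 3 enzymes widely used as markers of NRF2 activity were all called higher, but with unequal firmness. Hmox1 (ENSMUSG00000005413, chr8:75093621-75100589), heme oxygenase 1, which degrades heme to biliverdin, iron and carbon monoxide, had 7.10, 9.45, 5.98 and 5.98 CPM in the WT hearts and 16.9, 15.9, 16.9 and 12.8 in the mutant hearts. The lowest mutant value exceeded the highest WT value, and the fitted fold was 2.32 (log2 1.22 ± 0.10 SE, edgeR adjusted p = 7.24e-05). Srxn1 (ENSMUSG00000032802, chr2:152105516-152111376), sulfiredoxin, which repairs over-oxidised peroxiredoxins, measured 21.1, 20.9, 28.2 and 27.6 CPM in the 4 WT hearts and 55.1, 56.0, 61.1 and 36.9 in the 4 mutants. The groups did not overlap, TAZG197V 4 was the lowest mutant, and the log2 fold change was 1.02 ± 0.10 SE (edgeR adjusted p = 0.000197). Nqo1 (ENSMUSG00000003849, chr8:107388225-107403206), a quinone reductase, had 55.4, 58.0, 43.2 and 26.2 CPM in the WT hearts and 55.9, 60.0, 78.6 and 49.0 in the mutant hearts. Here the groups overlapped, WT 4 was far below the other WT hearts, and the call (log2 0.54 ± 0.14 SE, edgeR adjusted p = 0.0153) held in 8 of 17 alternative fits. Leaving out WT 4 gave a log2 fold change of 0.24 (edgeR adjusted p = 0.236), and the call was also lost without WT 2, TAZG197V 3 or TAZG197V 4.

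Genes for glutathione synthesis and recycling were called higher in 4 of 4 cases. Gss (ENSMUSG00000027610, chr2:155563181-155592810), glutathione synthetase, which joins glycine to gamma-glutamylcysteine, gave 13.2, 11.2, 12.7 and 11.8 CPM across WT 1 to WT 4 and 28.3, 33.4, 27.8 and 25.9 across TAZG197V 1 to TAZG197V 4. Each mutant heart had more than the highest WT heart, at a fitted fold of 2.33 (log2 1.22 ± 0.081 SE, edgeR adjusted p = 2.62e-05). Of the exon bases of Gss, 15.4% overlap genes of the opposite strand, Acss2 among them, and the strand setting of the counting is not given in the sources used here. Gclc (ENSMUSG00000032350, chr9:77754535-77794485), the catalytic subunit of glutamate-cysteine ligase, which makes the first and rate-limiting step, measured 14.6, 17.8, 15.3 and 14.4 CPM in the 4 WT hearts and 21.1, 20.9, 19.2 and 17.4 in the 4 mutants. Only WT 2 reached into the mutant range, and the log2 fold change was 0.37 ± 0.076 SE (edgeR adjusted p = 0.00615). Gclm (ENSMUSG00000028124, chr3:122245557-122270732), the modifier subunit of the same ligase, had 23.7, 22.7, 25.1 and 43.8 CPM in the WT hearts and 47.1, 44.9, 43.2 and 42.4 in the mutant hearts. WT 4 lay within the mutant range while the other 3 WT hearts lay well below it. The log2 fold change of Gclm was 0.60 ± 0.13 SE (edgeR adjusted p = 0.00924), and it was 0.91 without WT 4 and 0.89 without TAZG197V 4. Each of these fits used 1 surrogate variable, a fitted covariate for unwanted variation, where the main fit used 2. The Gclm call was lost without WT 1 (0.48, edgeR adjusted p = 0.0707) and without TAZG197V 2 (0.54, edgeR adjusted p = 0.0611). Gsr (ENSMUSG00000031584, chr8:33652523-33698163), glutathione reductase, which returns oxidised glutathione to its thiol form with NADPH, gave 21.3, 19.9, 20.7 and 23.6 CPM across WT 1 to WT 4 and 28.4, 31.04, 27.2 and 25.7 across TAZG197V 1 to TAZG197V 4. Its groups did not overlap (log2 0.37 ± 0.075 SE, edgeR adjusted p = 0.00576).

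The glutaredoxins, which use glutathione to reduce protein disulfides, did not pass. Glrx (ENSMUSG00000021591, chr13:75839868-75850154) ran from 17.4 to 21.6 CPM in WT and 16.4 to 20.7 in the mutants, and Glrx2 (ENSMUSG00000018196, chr1:143716338-143749676), which has a mitochondrial form, from 25.8 to 30.3 and from 26.9 to 30.8 CPM. Log2 fold changes were -0.02 ± 0.072 SE and 0.09 ± 0.072 SE (edgeR adjusted p = 0.857 and 0.375). That of Glrx2 was 0.02 without WT 4 and 0.01 without TAZG197V 4 (edgeR adjusted p = 0.863 and 0.921).

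In the thioredoxin system, both reductases and the cytosolic thioredoxin were called higher, whereas the mitochondrial thioredoxin and the inhibitor Txnip did not pass. Txnrd1 (ENSMUSG00000020250, chr10:82833951-82897712), the cytosolic selenoprotein that reduces thioredoxin with NADPH, had 56.6, 53.1, 61.7 and 57.5 CPM in the WT hearts and 100.5, 88.1, 99.0 and 72.4 in the mutant hearts. No mutant heart fell to the WT range, although TAZG197V 4 came nearest (log2 0.62 ± 0.07 SE, edgeR adjusted p = 0.000340). Txnrd2 (ENSMUSG00000075704, chr16:18426384-18479073), its mitochondrial counterpart, gave 35.1, 31.4, 35.5 and 31.6 CPM across WT 1 to WT 4 and 40.9, 41.2, 38.1 and 35.2 across TAZG197V 1 to TAZG197V 4. The shift was small and TAZG197V 4 lay within the WT range. Its log2 fold change of 0.21 ± 0.06 SE (edgeR adjusted p = 0.0260) was just past the fold required for a call, and it was called in 10 of 17 alternative fits. Leaving out WT 1, WT 2, TAZG197V 1 or TAZG197V 2 ended that call. Txn1 (ENSMUSG00000028367, chr4:57943373-57956411), the cytosolic thioredoxin, measured 51.1, 53.1, 52.0 and 43.3 CPM in the 4 WT hearts and 55.0, 62.4, 57.9 and 55.2 in the 4 mutants. The groups were separate but close, with a log2 fold change of 0.23 ± 0.063 SE (edgeR adjusted p = 0.0202) that was called in 9 of 17 alternative fits. It was 0.15 without WT 4 (edgeR adjusted p = 0.0921), and the call was also lost without WT 1, WT 2, TAZG197V 2 or TAZG197V 4. Txn2 (ENSMUSG00000005354, chr15:77915047-77929006), the mitochondrial thioredoxin, ran from 186 to 227 CPM in WT and 207 to 252 in the mutants (log2 0.12 ± 0.069 SE, edgeR adjusted p = 0.217). Omission of single libraries moved its value between 0.07, without TAZG197V 2, and 0.15, without WT 3. Txnip (ENSMUSG00000038393, chr3:96557957-96561883), which binds and inhibits thioredoxin, gave 778, 917, 732 and 499.7 CPM across WT 1 to WT 4 and 935, 861, 402 and 637 across TAZG197V 1 to TAZG197V 4. That is the widest spread of these 5 genes in both groups, and the difference was 0.06 ± 0.24 SE (edgeR adjusted p = 0.867). Without TAZG197V 3 Txnip was called higher, at 0.29 (edgeR adjusted p = 0.0413), and without WT 4 its value was -0.18 (edgeR adjusted p = 0.605).

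**Figure D3:**
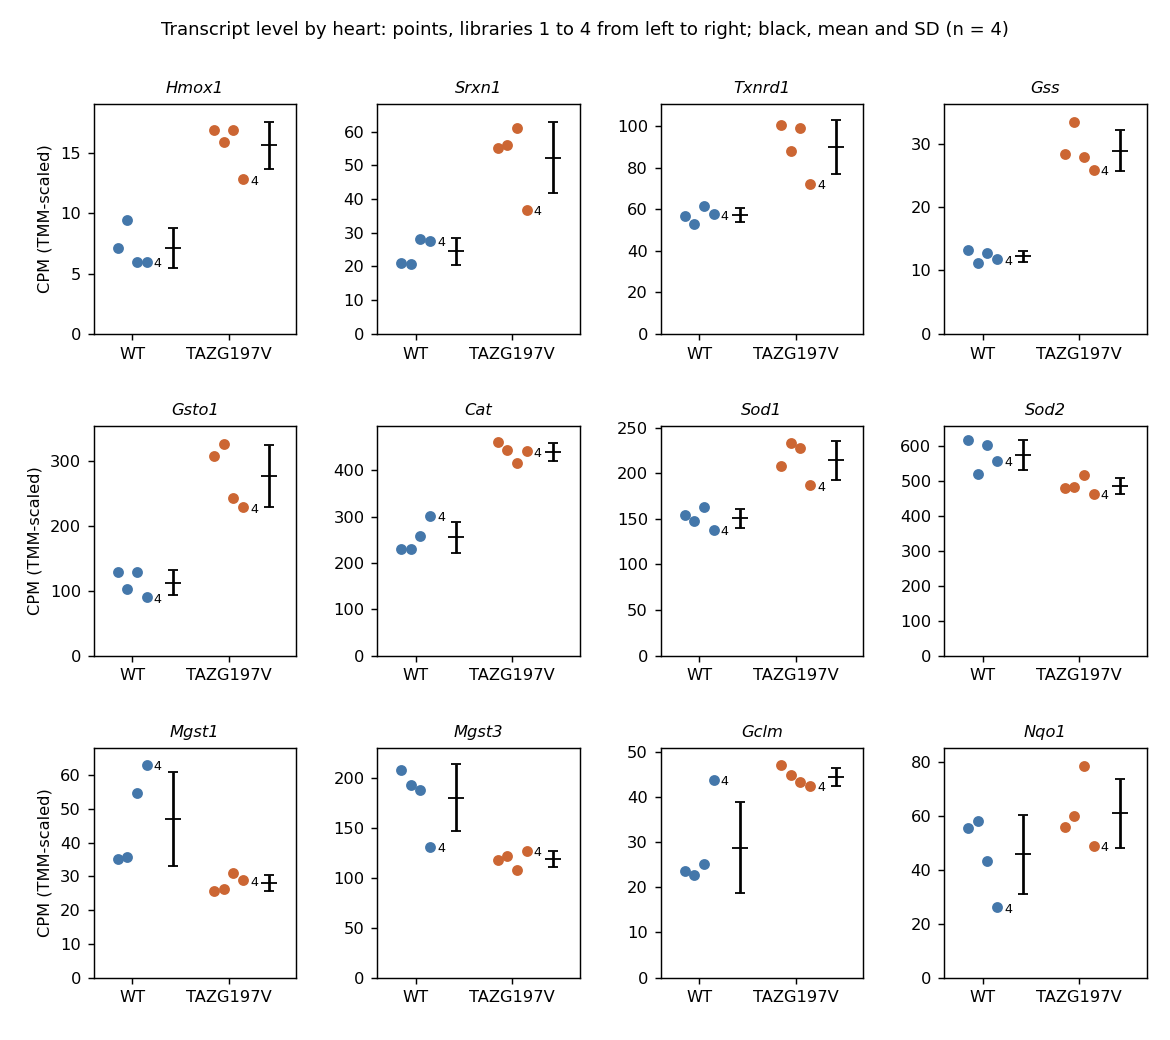
CPM (vertical axes, each starting at 0) of single genes in 4 WT and 4 TAZG197V libraries, each point 1 heart (WT blue, TAZG197V orange, the number 4 libraries marked), with the mean and SD beside the points. Gss sits at 11.2 to 13.2 in WT and 25.9 to 33.4 in TAZG197V, while Gclm shows 1 WT heart, WT 4, inside the mutant range.

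Of the 6 peroxiredoxins, thiol peroxidases that reduce hydrogen peroxide and organic peroxides, 2 were called, both higher. Over all genes tested 33.5% were called. Prdx6 (ENSMUSG00000026701, chr1:161240112-161251219), the 1-cysteine member that draws on glutathione, measured 192, 175, 217 and 195 CPM in the 4 WT hearts and 266, 256, 270.1 and 260.1 in the 4 mutants. The groups did not overlap (log2 0.41 ± 0.062 SE, edgeR adjusted p = 0.00135). Prdx1 (ENSMUSG00000028691, chr4:116685544-116700822), a cytosolic substrate of sulfiredoxin and thioredoxin, had 136, 134, 149.9 and 119.9 CPM in the WT hearts and 162, 181, 182 and 148 in the mutant hearts. TAZG197V 4 fell just under WT 3, and the log2 fold change was 0.32 ± 0.06 SE (edgeR adjusted p = 0.00420). Prdx3, the mitochondrial member and the most abundant of the 6 per length of exon, ran from 292 to 342 CPM in WT and 325 to 380.4 in the mutants, without passing (log2 0.16 ± 0.061 SE, edgeR adjusted p = 0.0694). Prdx4, of the endoplasmic reticulum, had a log2 fold change of 0.22 ± 0.088 SE (edgeR adjusted p = 0.0840), and 0.12 without WT 4 (edgeR adjusted p = 0.447). For Prdx5, found in mitochondria, peroxisomes and cytosol, it was -0.10 ± 0.069 SE (edgeR adjusted p = 0.262), and for Prdx2, which is abundant in red cells, 0.01 ± 0.052 SE (edgeR adjusted p = 0.901). Prdx2 did not follow the red cell genes, with 224, 208, 229 and 219.8 CPM in the 4 WT libraries.

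Glutathione peroxidases were called higher in 3 of 4 cases, and their groups overlapped in each. Gpx4 (ENSMUSG00000075706, chr10:80047166-80056439), the selenoprotein that reduces lipid hydroperoxides in membranes, measured 86.2, 70.2, 97.4 and 62.1 CPM in the 4 WT hearts and 122, 126, 128 and 97.0 in the 4 mutants. TAZG197V 4 fell just below WT 3, and the other mutants lay above every WT heart (log2 0.58 ± 0.086 SE, edgeR adjusted p = 0.00128). Its counts are uncertain, because 34.7% of its 50-base windows also occur in other genes, mainly the pseudogene Gpx4-ps2. Gpx3 (ENSMUSG00000018339, chr11:54902453-54910377), a secreted selenoprotein, had 153, 288, 173 and 111 CPM in the WT hearts and 281, 311, 231 and 230.0 in the mutant hearts. WT 2 reached the mutant range and WT 4 was lowest. The log2 fold change of Gpx3 was 0.74 ± 0.11 SE (edgeR adjusted p = 0.00124), but 0.37 without WT 4 (edgeR adjusted p = 0.209) and 0.46 without TAZG197V 4 (edgeR adjusted p = 0.125). The Gpx3 call was also lost with lane as covariate in place of surrogate variables (0.56, edgeR adjusted p = 0.0773), with 1 surrogate variable (0.57, edgeR adjusted p = 0.0912) and with none (0.54, edgeR adjusted p = 0.148). Gpx7 (ENSMUSG00000028597, chr4:108400390-108406961), of the endoplasmic reticulum, was low, at 5.21, 8.38, 5.86 and 5.89 CPM in WT and 7.67, 9.47, 7.36 and 7.48 in TAZG197V. With WT 2 inside the mutant range its edgeR adjusted p of 0.0499 (log2 0.41 ± 0.14 SE) was barely under the threshold and held in 6 of 17 alternative fits, with omission of any library but WT 2 or TAZG197V 3 ending the call.

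Gpx1, the main cytosolic glutathione peroxidase, did not pass, and its WT mean was set by 1 heart. Gpx1 (ENSMUSG00000063856, chr9:108338903-108340343) gave 44.9, 52.9, 53.9 and 146 CPM across WT 1 to WT 4 and 49.7, 55.6, 56.3 and 39.9 across TAZG197V 1 to TAZG197V 4. WT 4 held over 2 times the level of any other heart. In the same library the red cell genes summed to 55109 CPM, against at most 1066 in any other, and the neutrophil markers were highest. The log2 fold change of Gpx1 was -0.57 ± 0.29 SE with all libraries (edgeR adjusted p = 0.154) but 0.02 without WT 4 (edgeR adjusted p = 0.883) and 0.03 without TAZG197V 4 (edgeR adjusted p = 0.817). The fits without a number 4 library also had 1 surrogate variable in place of 2. Cat and Gclm were also highest among WT hearts in WT 4, while Prdx2 was not. Red cells are known to hold catalase, peroxiredoxin 2 and glutathione peroxidase 1, and their part in these levels was not tested beyond the values without WT 4.

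**Figure D4:**
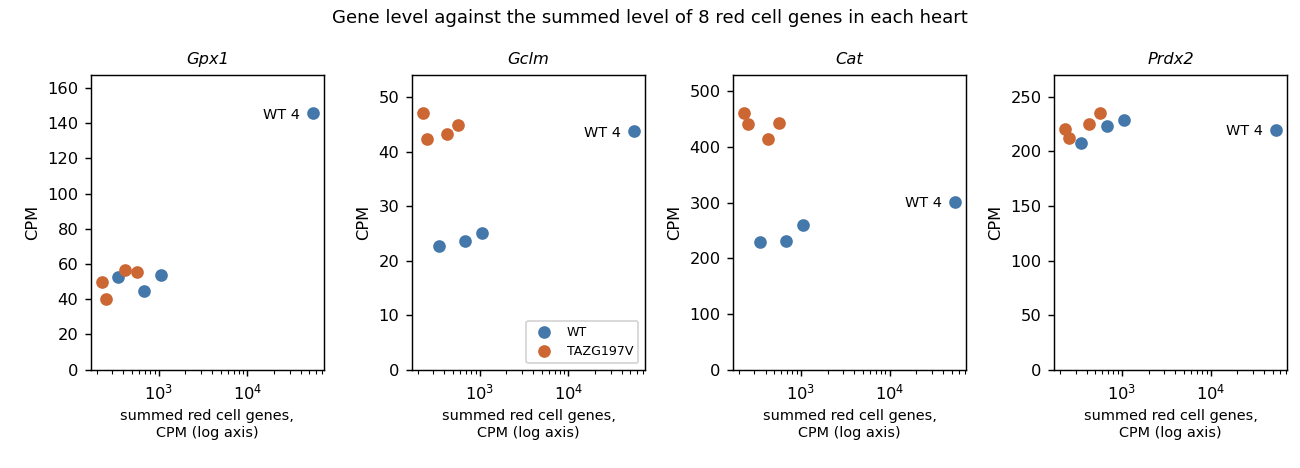
CPM of Gpx1, Gclm, Cat and Prdx2 (vertical axes) against the summed CPM of 8 red cell genes (horizontal log axis) in each heart, WT in blue and TAZG197V in orange. WT 4, far to the right at 55109 CPM, has the highest Gpx1 of the 8 hearts, whereas Cat there is still below all 4 TAZG197V hearts and Prdx2 lies among the rest.

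Of the 3 superoxide dismutases and catalase, 2 were called higher and 1 lower. Cat (ENSMUSG00000027187, chr2:103453849-103485160), peroxisomal catalase, measured 231, 230.3, 259 and 302 CPM in the 4 WT hearts and 461, 443, 415 and 441 in the 4 mutants. Each mutant heart exceeded every WT heart, at a fitted fold of 1.69 (log2 0.76 ± 0.074 SE, edgeR adjusted p = 0.000161), and 0.87 was the log2 fold change without WT 4. Sod1 (ENSMUSG00000022982, chr16:90220754-90226329), the copper-zinc dismutase of the cytosol and intermembrane space, had 154, 147, 163 and 138 CPM in the WT hearts and 208, 233, 228 and 187 in the mutant hearts. It rose without overlap (log2 0.50 ± 0.055 SE, edgeR adjusted p = 0.000302). Sod2 (ENSMUSG00000006818, chr17:13006846-13040063), the manganese dismutase of the mitochondrial matrix, gave 617, 519, 603 and 559 CPM across WT 1 to WT 4 and 481, 484, 517 and 464 across TAZG197V 1 to TAZG197V 4. Its groups were separate in the opposite direction, narrowly between WT 2 and TAZG197V 3, and it was called lower (log2 -0.26 ± 0.065 SE, edgeR adjusted p = 0.0154). Without TAZG197V 4 the Sod2 call was lost at -0.22 (edgeR adjusted p = 0.0619), and 21.0% of its 50-base windows also occur in another annotated gene. Sod3, the secreted dismutase, measured 26.2, 37.7, 42.6 and 37.8 CPM in the 4 WT hearts and 29.6, 29.3, 31.2 and 33.4 in the 4 mutants. With WT 1 low among the WT hearts it did not pass (log2 -0.23 ± 0.14 SE, edgeR adjusted p = 0.230), and without WT 1 it was called lower at -0.36 (edgeR adjusted p = 0.0184). Without WT 3, the highest WT heart, it was -0.09 (edgeR adjusted p = 0.610).

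To compare each cytosolic enzyme with its mitochondrial counterpart within a heart, log2 ratios of 5 pairs were taken. The level of such a ratio also depends on transcript length, so only its difference between genotypes is read. The pairs were taken up once the single genes were known, so the ratios restate those differences within each heart and carry no test. The Sod1 to Sod2 ratio was -2.003, -1.82, -1.89 and -2.02 in WT and -1.21, -1.05, -1.18 and -1.31 in TAZG197V, 0.74 higher on average in the mutants and without overlap. For Txnrd1 to Txnrd2 the ratio was 0.69, 0.76, 0.80 and 0.87 in WT and 1.30, 1.10, 1.38 and 1.04 in TAZG197V, with a mean difference of 0.43. The Prdx1 to Prdx3 ratio differed by 0.15, and WT 2 and TAZG197V 1 both lay at -1.15. Txn1 to Txn2 differed by 0.09 and Glrx to Glrx2 by -0.07, and both overlapped between genotypes.

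**Figure D5:**
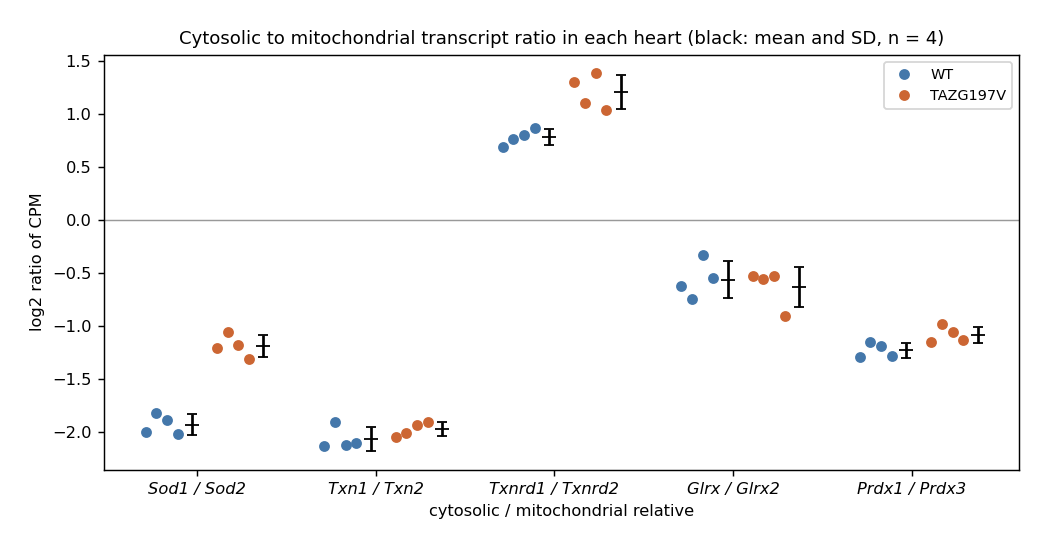
Log2 ratio of CPM between the cytosolic and the mitochondrial member of 5 pairs (vertical axis) in each heart, WT blue and TAZG197V orange, with the mean and SD of each genotype. The Sod1 to Sod2 ratio averages -1.93 in WT and -1.19 in TAZG197V without overlap, whereas the Txn1 to Txn2 and Glrx to Glrx2 ratios overlap.

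Among the 5 selenoproteins of the set, Txnrd1, Txnrd2, Gpx3 and Gpx4 were called higher and Gpx1 was not, where 18.5% of all genes were called higher. Of these calls, that of Gpx3 was lost without WT 4 and that of Txnrd2 held in 10 of 17 alternative fits. For Gpx4, 34.7% of its 50-base windows also occur in other genes. Selenoproteins outside the set were not counted here, and the share was not tested against the other genes.

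Glutathione S-transferases, which couple glutathione to electrophiles, moved in both directions, with 2 called higher, 3 lower and 2 not called. Gsto1 (ENSMUSG00000025068, chr19:47854970-47864790), the omega-class enzyme that reduces dehydroascorbate and arsenicals, had 129, 104, 129 and 90.0 CPM in the WT hearts and 309, 326, 244 and 229 in the mutant hearts. It had the largest rise of the 41 genes and no overlap, at a fitted fold of 2.45 (log2 1.29 ± 0.12 SE, edgeR adjusted p = 0.000113). Gstm5 (ENSMUSG00000004032, chr3:107895821-107898686), a mu-class enzyme, gave 36.9, 29.8, 36.6 and 37.3 CPM across WT 1 to WT 4 and 43.4, 49.2, 45.4 and 45.1 across TAZG197V 1 to TAZG197V 4. The groups did not overlap (log2 0.35 ± 0.063 SE, edgeR adjusted p = 0.00312). Mgst1 (ENSMUSG00000008540, chr6:138140316-138156755), a microsomal transferase with peroxidase activity in the endoplasmic reticulum and outer mitochondrial membrane, measured 35.1, 35.6, 54.7 and 63.0 CPM in the 4 WT hearts and 25.7, 26.3, 30.9 and 28.9 in the 4 mutants. All mutants lay below all WT hearts, WT itself ran over a wide range, and the fitted level was 0.574 times that of WT (log2 -0.80 ± 0.12 SE, edgeR adjusted p = 0.00162). Mgst3 (ENSMUSG00000026688, chr1:167371966-167393841), a second microsomal transferase, had 209, 194, 189 and 131 CPM in the WT hearts and 118, 122, 108 and 127 in the mutant hearts. It too fell without overlap, WT 4 being close to the mutants (log2 -0.55 ± 0.12 SE, edgeR adjusted p = 0.00700). Gstm1 (ENSMUSG00000058135, chr3:108012255-108017973) gave 94.8, 103, 111 and 134 CPM across WT 1 to WT 4 and 87.0, 77.2, 92.7 and 114 across TAZG197V 1 to TAZG197V 4. Its groups overlapped, TAZG197V 4 lying above 3 WT hearts, and its call as lower (log2 -0.28 ± 0.08 SE, edgeR adjusted p = 0.0245) held in 11 of 17 alternative fits, not in those without WT 3, WT 4, TAZG197V 1 or TAZG197V 2. Of its 50-base windows, 18.9% also occur in other genes, mainly the pseudogene Gstm2-ps1.

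Gsta4, an alpha-class enzyme that detoxifies the lipid peroxidation product 4-hydroxynonenal, measured 65.3, 54.0, 67.0 and 63.7 CPM in the 4 WT hearts and 67.5, 73.2, 101 and 71.1 in the 4 mutants. The mutants were all above WT, led by TAZG197V 3, yet the difference of 0.29 ± 0.12 SE did not pass (edgeR adjusted p = 0.0848). Without both number 4 libraries it was called, at 0.39 (edgeR adjusted p = 0.0471), but without TAZG197V 3 the difference was 0.14 (edgeR adjusted p = 0.142). Gstp1, the pi-class enzyme, ran from 34.4 to 37.0 CPM in WT and 33.7 to 38.8 in the mutants (log2 0.02 ± 0.065 SE, edgeR adjusted p = 0.874), with 33.7% of its 50-base windows shared, mainly with Gstp2.

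The pentose phosphate pathway supplies the NADPH that both reductases use, and 1 of its 4 genes here was called. Pgd (ENSMUSG00000028961, chr4:149149991-149166771), 6-phosphogluconate dehydrogenase, had 32.4, 31.9, 34.3 and 35.4 CPM in the WT hearts and 40.5, 42.1, 44.3 and 37.8 in the mutant hearts. Its groups did not overlap (log2 0.28 ± 0.06 SE, edgeR adjusted p = 0.00751). G6pdx, the first enzyme of the pathway, ran from 6.73 to 10.2 CPM in WT and 6.82 to 8.58 in the mutants, with a log2 fold change of -0.14 ± 0.15 SE (edgeR adjusted p = 0.487), which was -0.01 without WT 4 and 0.01 without TAZG197V 4 (edgeR adjusted p = 0.970 and 0.976). The non-oxidative enzymes Taldo1 and Tkt had log2 fold changes of -0.02 ± 0.082 SE and 0.02 ± 0.086 SE (edgeR adjusted p = 0.875 and 0.843). Both turned in sign with the libraries used. Taldo1 was highest among all hearts in WT 4, at 87.7 CPM, and its value was 0.17 without WT 4 and 0.17 without TAZG197V 4 (edgeR adjusted p = 0.0696 and 0.0860). Without both number 4 libraries Taldo1 reached 0.20 (edgeR adjusted p = 0.0354), short of the fold required for a call. Tkt was -0.03 without TAZG197V 3 or TAZG197V 4.

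Per kilobase of annotated exon, levels in WT hearts spanned from 2.07 CPM for Gss and 2.67 for G6pdx to 214 for Prdx3 and 234 for Txnip. In TAZG197V hearts, Cat reached 168 CPM per kilobase against 97.8 in WT, and Gsto1 137 against 55.8. Mgst3, at 165 CPM per kilobase in WT, was the third most abundant of the 41 there and stood at 108 in TAZG197V. The genes with the largest fitted rises were thus of unequal abundance, Gss and Hmox1 being among the lowest per length and Gsto1 and Cat among the highest.

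Around the 41 genes, 107 further genes of the same pathways were listed, of which 103 were tested. Of these 33 were called higher and 18 lower (49.5% in all, against 33.5% of all genes), and their median log2 fold change was 0.00. Among 12 partners and controllers of NRF2, 4 were called, each of them higher, where 33.5% of all genes were called. The median log2 fold change of the 12 was 0.02 and the lowest -0.64. All mutants lay above all WT hearts for 4 of them and below for 2. Sqstm1, the autophagy receptor p62 that binds KEAP1, ran from 294 to 378 CPM in WT and 668 to 829 in the mutants (log2 1.14 ± 0.074 SE, edgeR adjusted p = 2.21e-05). The small MAF genes Mafg and Mafk, whose proteins pair with NRF2 on DNA, changed by 0.61 and 0.41 (edgeR adjusted p = 0.000165 and 0.0129). Mafg was called in 17 of 17 alternative fits and Mafk in 13. The Mafk value was 0.24 without WT 4 and 0.25 without TAZG197V 4, and its call was lost without TAZG197V 2 (edgeR adjusted p = 0.0515), without both number 4 libraries (edgeR adjusted p = 0.0556), without surrogate variables (edgeR adjusted p = 0.0513) and with the replicate number as a block (edgeR adjusted p = 0.0629). The fourth was Nfe2l1, a relative of NRF2, at 0.37, named here outside the naming rule.

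Of 21 other NRF2 target genes, 7 were called higher and 4 lower (18.5% and 15.1% over all genes), with a median of 0.24. Slc7a11, the cystine importer that feeds glutathione synthesis, was almost silent in WT at 0.0338 to 0.536 CPM and reached 10.6 to 19.8 CPM in TAZG197V. Its fitted log2 fold change of 6.08 (edgeR adjusted p = 5.82e-05) rests on as little as 1 count per WT library, and omission of single libraries moved it between 5.72 and 7.04. Abcc4, an efflux pump, ran from 14.8 to 17.3 CPM in WT and 33.8 to 49.2 in the mutants (1.34, edgeR adjusted p = 1.38e-05), and Esd, S-formylglutathione hydrolase, from 49.7 to 55.2 and from 101 to 129 (1.20, edgeR adjusted p = 2.84e-06).

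Of 26 other glutathione genes 22 were tested, and 6 were called higher and 7 lower (18.5% and 15.1% over all genes), with a median of 0.01. Chac1, which breaks glutathione down in the cytosol and is also a target of the integrated stress response, ran from 3.38 to 6.66 CPM in WT and 57.4 to 89.4 in the mutants (log2 3.91 ± 0.21 SE, edgeR adjusted p = 9.76e-06). The transferases Gstt1 and Gstk1, the latter mitochondrial and peroxisomal, fell. Gstt1 lay between 10.8 and 17.7 CPM in WT and between 4.80 and 6.71 in the mutants, and Gstk1 between 68.7 and 80.0 and between 38.7 and 40.5 (log2 -1.27 and -0.93, edgeR adjusted p = 0.000486 and 2.26e-05). Glutathione-making and glutathione-degrading genes thus both included members that rose.

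Of 18 thioredoxin-fold and repair genes, 8 were called higher and 2 lower (18.5% and 15.1% over all genes), with a median of 0.12. Sesn2, a sestrin, ran from 3.6 to 5.45 CPM in WT and 24.1 to 37.2 in the mutants (2.80, edgeR adjusted p = 2.33e-06). Msrb2, the mitochondrial methionine sulfoxide reductase, was at 59.1 to 71.3 and 37.8 to 40.5 CPM (-0.77, edgeR adjusted p = 0.000133), and Txndc17, a thioredoxin-like protein, had 0.55 (edgeR adjusted p = 0.000512).

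Of 19 genes for NADPH supply outside the set, 7 were called higher and 4 lower (18.5% and 15.1% over all genes), with a median of -0.01. The largest differences were in mitochondrial one-carbon metabolism, where Mthfd2 ran from 3.30 to 5.51 CPM in WT and 341 to 381 in the mutants (log2 6.46 ± 0.15 SE, edgeR adjusted p = 1.54e-07). Aldh1l2, the mitochondrial 10-formyltetrahydrofolate dehydrogenase, was at 6.56 to 16.1 and 78.8 to 94.0 CPM (2.97, edgeR adjusted p = 2.62e-05), and Pgls, 6-phosphogluconolactonase, at 28.04 to 36.9 and 43.8 to 59.3 CPM (0.71, edgeR adjusted p = 0.000206). Nnt, the mitochondrial transhydrogenase whose gene carries a known deletion in C57BL/6J but not in C57BL/6N mice, was low in every heart, at 3.65, 2.36, 3.30 and 2.19 CPM in WT and 2.33, 2.02, 2.74 and 1.65 in TAZG197V. It did not pass (-0.43 ± 0.19 SE, edgeR adjusted p = 0.102), its groups overlapped, and 47.0% of its 50-base windows also occur in a second annotated record of the same name, ENSMUSG00000116207. How reads in both records were counted is not given in the sources used here, so its level is uncertain and the Nnt genotype of the hearts was not read from it.

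Of 11 genes for sources of superoxide or hydrogen peroxide, 1 was called higher and 1 lower (18.5% and 15.1% over all genes), with a median of -0.35. Both called genes encode monoamine oxidases of the outer mitochondrial membrane. Maoa gave 5.82, 7.09, 5.24 and 4.87 CPM across WT 1 to WT 4 and 64.2, 57.8, 36.5 and 81.0 across TAZG197V 1 to TAZG197V 4. Maob measured 66.9, 65.4, 62.2 and 92.5 CPM in the 4 WT hearts and 30.2, 31.6, 38.9 and 38.2 in the 4 mutants. The pair moved in opposite directions without overlap, at log2 fold changes of 3.43 ± 0.19 SE and -1.06 ± 0.11 SE (edgeR adjusted p = 9.48e-06 and 0.000181).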

How the data were processed

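RNA was extracted with TRIzol from small pieces of heart, and libraries were made with a TruSeq kit. Per the labels, the authors used bcl2fastq 2.20.0, FastQC 0.11.9, STAR 2.7.3a with build mm10, and featureCounts (Subread 2.0.0). The deposited values are raw counts of reads in exons per Ensembl gene. Which annotation release and strand setting were used, and how multi-mapping reads were treated, is not given in the sources used here. Each file also held 92 spike-in (ERCC) rows, which summed to 0 and were left out. Genes on opposite strands that share exon bases, such as Gss, Prdx5 and Txnip with their neighbours, and genes with near-identical copies, such as Gpx4 and Gstp1, are therefore uncertain.

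Counts were fitted in R 4.3.3 with edgeR 4.0.16, after filterByExpr and TMM scaling, with 2 surrogate variables from svaseq (sva 3.50.0, random seed 1, genotype protected). Genotype was tested over all 15084 genes with the two-sided quasi-likelihood F-test and Benjamini-Hochberg adjustment. A standard error is the size of the log2 fold change over the square root of F. CPM values are TMM-scaled and carry no surrogate variable correction, so a fitted difference can depart from the ratio of mean CPM. Calls required an adjusted p under 0.05, a log2 fold change beyond 0.202 either way and a mean scaled count of at least 50, as in the study. The labels number the libraries without naming the mice, so p-values measure the spread between these libraries, each described here as 1 heart. Lane, read from the names of the deposited files, was 7 for libraries 1 and 2 and 8 for libraries 3 and 4 of both genotypes. Within a genotype the chi-square between libraries was at least 10.2 per gene, so no library is a mere re-sequencing of another. It cannot tell 2 pieces of 1 heart from pieces of different hearts. Intervals from counts would cover counting error only, since reads carried no molecular identifiers, and at these depths the spread between hearts sets the precision.

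Symbols, positions and exon lengths came from GENCODE M21 on GRCm38 (55230 IDs with a symbol, 241 without), and promoters from RefSeq on GRCm38.p6. A 50-base window, the read length, was counted as shared when it occurred in a transcript of another gene. The 41 genes, the 107 further pathway genes and the marker lists were chosen with earlier results of these data known. Named are all 41 genes, Taz, Nnt and, in each further list, up to 3 called genes with the largest change. Pair ratios are described without a test. Alternatives were DESeq2 1.42.0, DESeq2 size factors, other surrogate variables, lane or replicate number as covariate, omission of mitochondrially encoded genes or of libraries, other thresholds and no low-count filter. The procedure was tested on simulated counts.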

Additional observations from a re-analysis of the deposited data

Results flagged for a closer look

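For each of the 41 genes, the 4 WT and the 4 TAZG197V values were searched for a heart apart from the other 3, by Dixon's ratio, which divides its gap to the next heart by the whole spread of log2 CPM. Of 82 sets, 5 passed the critical value, where chance gives about 4.1. In WT 4, Gclm was high at 43.8 CPM against 22.7 to 25.1 in the other WT hearts (ratio 0.846), and so was Gpx1 at 145.5 CPM against 44.9 to 53.9 (0.844). The red cell genes summed to 55109 CPM in that library, and their part in either value was not tested. Gpx4 was low in TAZG197V 4, at 97.0 CPM against 122 to 128 (0.845), a library in which neural markers summed to 271 CPM. Gpx7 was high in TAZG197V 2, at 9.47 CPM against 7.36 to 7.67 (0.838). Gstm5 was low in WT 2, at 29.8 CPM against 36.6 to 37.3 (0.92), where atrial markers summed to 1094 CPM.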

How the results depend on the processing

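Of the 25 called genes, 17 were called in each of 17 alternative fits, 15 higher and 2 lower, and 0 of the 25 changed sign in any of them. The other 8 were Nqo1, Txn1, Txnrd2, Gclm, Gpx3, Gpx7, Sod2 and Gstm1. Of these, Nqo1, Txn1, Gpx3, Gpx7 and Gstm1 also lost their calls with lane as covariate (edgeR adjusted p = 0.185, 0.0657, 0.0773, 0.143 and 0.0637). That fit held no surrogate variables, and the same 5 calls were lost with neither lane nor surrogate variables. Of the 16 genes not called, 9 changed sign in some alternative fit and 3 (Sod3, Txnip and Gsta4) were called in 1. With a fold of at least 1.5 required, 8 of the 41 genes were called higher and 1 lower, with 25 of the other pathway genes and 1843 of all genes, by construction. Without surrogate variables 17 were called higher and 3 lower, and under DESeq2 19 and 4. Without 1 library, 17 to 21 were called higher and 3 to 5 lower, with a median log2 fold change of the 41 genes from 0.21 to 0.26. Surrogate variables were estimated anew whenever libraries were omitted. Without WT 2, WT 4, TAZG197V 4 or both number 4 libraries 1 was used, and 2 in the main fit. The main variables were furthest from 0 in TAZG197V 4 (0.72) and WT 2 (-0.84). Values from those fits therefore differ from the main fit in both the libraries and the model. The Txnrd1 to Txnrd2 ratio differed by 0.51 without both number 4 libraries. The omission of both number 4 libraries was planned with earlier results known, and the pair ratios were added after seeing the data.

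Libraries with the same number were not taken as pairs, because the correlation of their deviations from the genotype means was over 0.1 for 3 of 4 numbers only (0.277, 0.0436, 0.28 and 0.416 for numbers 1 to 4). Between different numbers it ran from -0.464 to 0.317, and 5 of 8 libraries correlated best with their own number, a hint from the data and not from the design. With the replicate block 19 genes were called higher and 4 lower, and 46 other pathway genes were called. The calls of Nqo1 (edgeR adjusted p = 0.102) and Txnrd2 (edgeR adjusted p = 0.0521) were lost under it, and so was that of Mafk among the other pathway genes. Depth limits few of these values, since counts per library were at least 132 for each of the 41 genes. The 4 hearts per genotype set what can be separated.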
